A study of Mus musculus with 6 samples.

Results

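The mitotic cyclins and kinases described here are 10 genes of the 28879 in the deposited table, chosen by name: the cyclins Ccna2, Ccnb1 and Ccnb2, the kinases Cdk1, Plk1, Aurka, Aurkb, Aurkc and Bub1, and the activator Cdc20. Their RNA was measured in mouse blastocysts that were either fresh (labelled Fresh) or vitrified and then warmed (labelled Cryo), with 3 RNA-Seq libraries per group. The protocol names superovulated C57BL/6JNarl females of 6 to 8 weeks as donors, whereas the design text names B6CBF1 embryos, and the strain could not be settled from these sources. All embryos were collected as zygotes from mated females and grown in human tubal fluid for 3 days to blastocysts. Those of the Cryo group were then vitrified with a clinical Cryotech kit and warmed, and the time from warming to RNA collection is not given in the sources used here. Each group was 1 pool of embryos divided into 3 aliquots, 1 per library, so every p-value measures the spread between aliquots of 1 pool and not between embryos or pools. Libraries were made with the Ovation SoLo kit for very small amounts of RNA.

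Cyclins are the regulatory partners of cyclin-dependent kinases. Cdk1 bound to cyclin A and then to cyclin B drives cells into mitosis, Plk1 and the Aurora kinases build the spindle and correct its attachments, and Bub1 belongs to the checkpoint that holds back anaphase until every chromosome is attached. Cdc20 then activates the anaphase-promoting complex (APC/C), the ubiquitin ligase that marks the cyclins for destruction. Transcripts of this programme are made in late S phase and G2, and cleavage-stage embryos also inherit some of them from the oocyte.

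Many genes of this programme carry CCAAT boxes, which NF-Y binds, and a cell cycle genes homology region (TTTGAA in many of them), which the MuvB complex binds through Lin54. The promoter windows below are printed so that the members' directions can be read beside these letters. A RefSeq window on GRCm38.p6, from 250 bases before to 50 bases after the start site, was matched for 8 of the 10 genes, and none was matched for Ccna2 and Aurkb. CCAAT or its complement ATTGG was present in 8 of 8 windows, against 37.4% of 32851 RefSeq windows of the same length. TTTGAA or its complement TTCAAA was present in 5 (Ccnb2, Cdk1, Plk1, Aurka and Cdc20), against 17.9%, and the same 5 held both motifs, against 6.95%. The Bub1 window held the related TTCGAA, 14 bases after the start, which 1.56% of windows hold. These motifs do not overlap each other in the windows. The last 150 bases before the start site are given 5′ to 3′ in the direction of transcription, with these motifs in capitals. They lie at chr13:100786487-100786636 (minus strand) for Ccnb1, chr9:70421555-70421704 (minus strand) for Ccnb2, chr10:69352913-69353062 (minus strand) for Cdk1, chr2:172370571-172370720 (minus strand) for Aurka and chr4:118437344-118437493 (minus strand) for Cdc20.
Ccnb1: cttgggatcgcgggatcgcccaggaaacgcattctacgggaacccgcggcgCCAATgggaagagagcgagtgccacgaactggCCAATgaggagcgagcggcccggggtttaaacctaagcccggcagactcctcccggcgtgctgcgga
Ccnb2: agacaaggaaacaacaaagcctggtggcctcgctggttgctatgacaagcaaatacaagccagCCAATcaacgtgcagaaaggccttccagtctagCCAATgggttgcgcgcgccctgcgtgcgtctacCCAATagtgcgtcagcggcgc
Cdk1: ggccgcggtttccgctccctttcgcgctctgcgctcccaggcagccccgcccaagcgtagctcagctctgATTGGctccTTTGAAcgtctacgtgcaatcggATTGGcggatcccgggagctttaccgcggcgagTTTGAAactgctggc
Aurka: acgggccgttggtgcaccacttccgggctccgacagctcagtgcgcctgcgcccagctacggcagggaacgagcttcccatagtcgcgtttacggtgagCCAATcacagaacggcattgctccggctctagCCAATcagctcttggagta
Cdc20: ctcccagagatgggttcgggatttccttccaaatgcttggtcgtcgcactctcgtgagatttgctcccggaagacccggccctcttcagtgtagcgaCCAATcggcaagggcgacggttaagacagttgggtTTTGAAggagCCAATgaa

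In Ccnb1, Ccnb2, Cdk1 and Aurka, CCAAT boxes recurred in the same direction. Their first bases were 32 apart in Ccnb1 and Aurka, and the 3 boxes of Ccnb2 were 33 and 33 apart. Cdk1 had a pair 32 apart and a further box 128 bases upstream of that pair, beyond the printed stretch. Such a pair at 32 or 33 bases was found in 160 of all windows (0.487%). The spacing of 32 or 33 bases is that of these genes themselves, so the share carries no test. In Cdc20 the boxes were 45 apart. The RefSeq start of Aurkc lies 5493 bases inside the span that the deposited table gives the gene, so its window, which held 1 ATTGG, is not that of the table's first base and is not printed. For Ccnb1 and Aurka the RefSeq start lies 57 and 136 bases inside that span. A match is a description of letters and no evidence of binding.

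The libraries held 9093411 to 11843562 exon fragments each. Genes with at least 1 fragment numbered 20086, 15558 and 15991 in fresh and 17764, 17563 and 17763 in vitrified–warmed libraries. The first fresh library thus stood apart from the others of its group in this number. Levels are given as CPM, the exon fragment count scaled to a common library size with TMM factors, when libraries are compared, and as the deposited FPKM, which divides by exon length, when genes are compared. Differences are log2 fold changes of vitrified–warmed over fresh with their standard error (SE), tested with the edgeR quasi-likelihood test and called at an adjusted p under 0.05 over 12774 genes. Trophectoderm markers were above 1 FPKM for 6 of 7 genes, inner cell mass markers for 6 of 6, and cumulus cell and sperm markers for 0 of 7 and 0 of 6. By the edgeR test, 5 of 7 trophectoderm markers were higher and 1 lower, and 4 of 6 inner cell mass markers were higher and 0 lower. Over all tested genes, 31.6% were higher and 32.8% lower. Summed, trophectoderm markers held 470 to 482 FPKM in fresh and 471 to 494 FPKM in vitrified–warmed libraries, and inner cell mass markers 157 to 163 and 144 to 151 FPKM. The calls rest on counts and the sums on FPKM, where the median log2 fold change of all tested genes was -0.13, so their directions can differ. Among inner cell mass markers, Pou5f1 held 86.7 to 91.5 FPKM in fresh and 74.4 to 79.3 FPKM in vitrified–warmed libraries. Nanog was also lower by FPKM (49.6 to 50.8 against 41.7 to 45.7), and neither was called lower. Sox2 (7.56 to 9.06 against 10.8 to 11.5), Fgf4, Klf2 and Esrrb were higher by FPKM. Blood and immune cell markers summed to 3.27 to 4.08 FPKM in fresh and 11.1 to 14.8 FPKM in vitrified–warmed libraries, with 3 of 9 genes above 1 FPKM and 3 of 3 tested genes higher. The part of these marker lists in the results was not tested.

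The genes of this group moved little and not as one. Of the 10, all tested, 5 were lower in vitrified–warmed blastocysts (Ccna2, Cdk1, Aurka, Aurkc and Cdc20), 1 was higher (Ccnb2) and 4 were not called (Ccnb1, Plk1, Aurkb and Bub1). Aurkc is counted among the 5, but it passed the filter on low counts through the fresh libraries, so its call is no evidence of a difference. Among genes above 1 FPKM alone, which leaves Aurkc out, 4 members were lower and 1 higher, against 33.2% and 32.7% of the genes. Over all tested genes, 32.8% were lower, 31.6% higher and 64.4% called in either direction. The median log2 fold change of the 10 was -0.15, against -0.00 over all genes. The absolute change of 9 of the 10 was below the median of all tested genes, which was 0.43 on the log2 scale. That median includes genes of low counts, and no comparison with genes of a matched level was made. Past a further threshold of 1.5-fold, only Aurkc remained among them, with the same limit. Of all tested genes, 17.7% were lower, 18.5% higher and 36.2% either past that threshold. In bulk libraries, fewer cells of a type and less RNA per cell cannot be told apart, so a lower value here may be either.

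**Figure D1:**
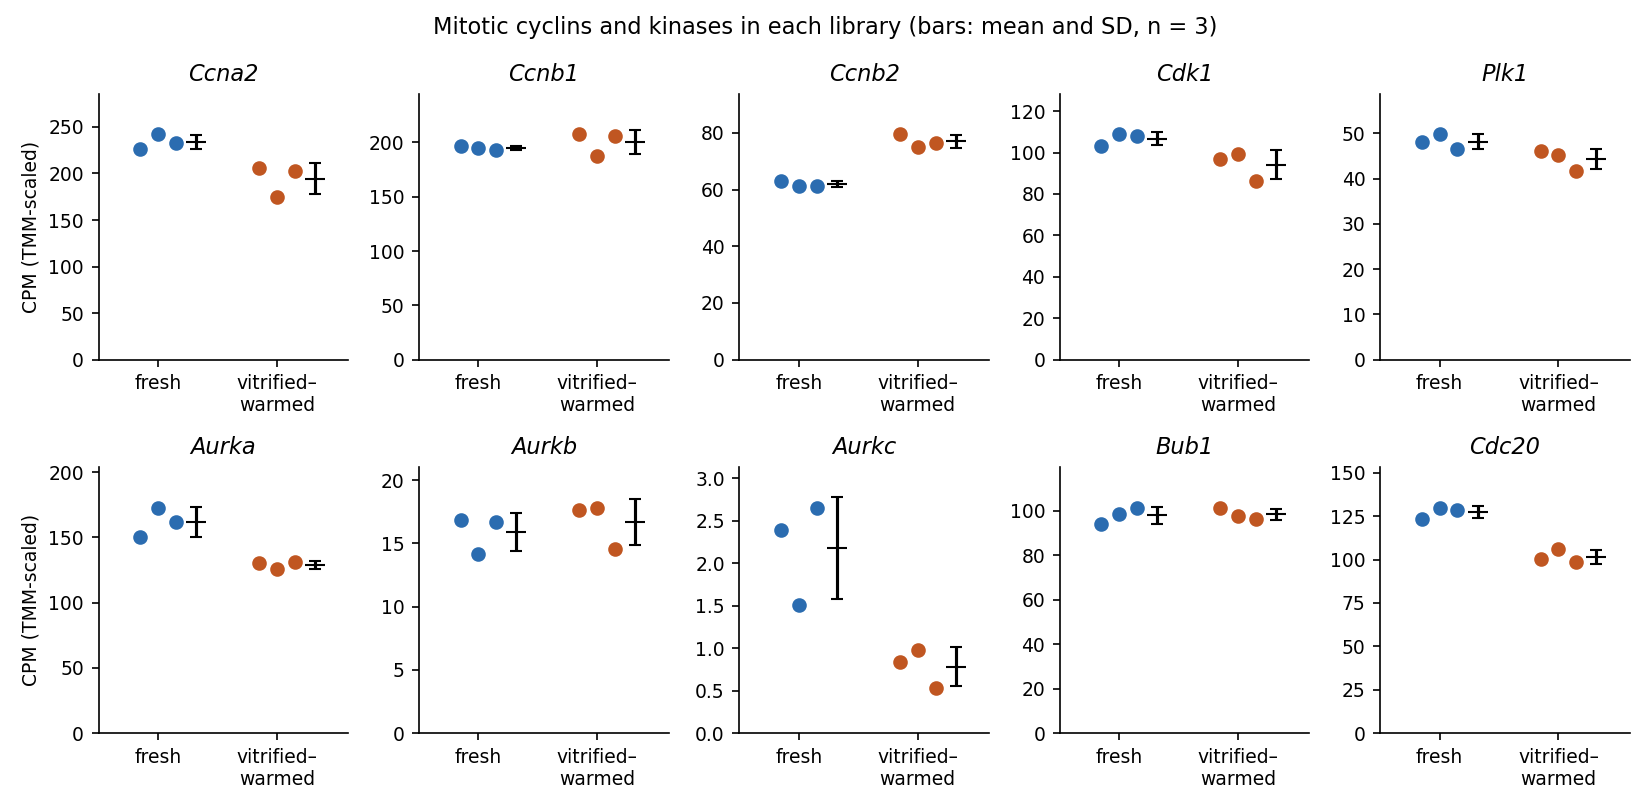
CPM of each gene (vertical axis, from 0, each gene on its own scale) in the 3 fresh and 3 vitrified–warmed libraries, shown as points, with the mean and SD of each group beside them. The groups do not overlap for Ccnb2, where vitrified–warmed libraries are higher, or for Ccna2, Cdk1, Plk1, Aurka, Aurkc and Cdc20, where they are lower.

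Among the cyclins, Ccna2 was lower, Ccnb2 was higher and Ccnb1 was not called. Ccna2 (Entrez 12428, GRCm38 chromosome 3, 36564865 to 36571996, 8 exons) encodes cyclin A2, which partners Cdk2 in S phase and Cdk1 on the way into mitosis. It had 226, 242 and 233 CPM in the fresh libraries and 205, 175 and 203 CPM in the vitrified–warmed libraries. All 3 vitrified–warmed values lay under all 3 fresh values, and the second vitrified–warmed library was the lowest. It fell by 0.26 on the log2 scale (SE 0.06, edgeR adjusted p = 7.88e-04). The gene shares 863 bases with Exosc9 on the opposite strand, and whether counting used strand is not given in the sources used here, so reads from the shared bases cannot be assigned with certainty. Exosc9, an exosome subunit, was itself lower, with a log2 fold change of -0.21 (SE 0.05, edgeR adjusted p = 0.00349).

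Ccnb1 (Entrez 268697, chromosome 13, 100778732 to 100786543, 11 exons) encodes cyclin B1, the main mitotic partner of Cdk1. Its CPM was 196, 195 and 193 in fresh and 208, 187 and 206 in vitrified–warmed libraries. The second vitrified–warmed library lay below the fresh ones and the other 2 above them, so the groups overlapped. The log2 fold change was 0.04 (SE 0.04, edgeR adjusted p = 0.436). It was called higher, at 0.09, only without the second vitrified–warmed library (adjusted p = 0.0370) and, at 0.12, after a correction for exon length (adjusted p = 0.0333). Among 75-base stretches of its annotated transcripts, 18.9% also occur in transcripts of other genes, mostly the pseudogene Ccnb1-ps, so its count is less certain than that of Ccnb2, for which the share was 0%.

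Ccnb2 (Entrez 12442, chromosome 9, 70407689 to 70421554, 9 exons) encodes cyclin B2, the B-type cyclin found mainly at the Golgi. Fresh libraries held 63.1, 61.4 and 61.3 CPM and vitrified–warmed libraries 79.6, 75.2 and 76.4 CPM. The lowest vitrified–warmed value stood above the highest fresh one, and the spread within each group was small, with SDs of 0.998 and 2.27 CPM. Ccnb2 rose by 0.32 on the log2 scale, which is 24.5% (SE 0.05 on the log2 scale, edgeR adjusted p = 9.73e-05). It was the one gene of the 10 called higher.

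The proportion of B-type to A-type cyclin transcripts was higher in vitrified–warmed libraries. The FPKM of Ccnb1 and Ccnb2 together over that of Ccna2 was 1.53, 1.41 and 1.46 in fresh and 1.90, 2.05 and 1.88 in vitrified–warmed libraries. These groups did not overlap. Ccnb2 made up 33.2%, 32.7% and 32.9% of B-type cyclin FPKM in fresh and 37.2%, 38.3% and 36.5% in vitrified–warmed libraries, again without overlap. These ratios within a library do not depend on how libraries are scaled, and they were chosen after the single values were seen, so they carry no test.

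Cdk1 (Entrez 12534, chromosome 10, 69336635 to 69352912, 8 exons) encodes the kinase that these cyclins activate. It had 103, 109 and 108 CPM in fresh and 96.8, 99.4 and 86.2 CPM in vitrified–warmed libraries. The groups did not overlap, and the third vitrified–warmed library was the lowest. Cdk1 fell by 0.18 on the log2 scale (SE 0.06, edgeR adjusted p = 0.00984), the smallest change of the 6 that were called. Without the third vitrified–warmed library the log2 fold change was -0.10 (adjusted p = 0.0917), and with a correction for exon length it was -0.10 (adjusted p = 0.138). The FPKM of the 3 cyclins together over that of Cdk1 overlapped between groups, at 5.39 to 5.67 in fresh and 5.46 to 6.91 in vitrified–warmed libraries.

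Plk1 (Entrez 18817, chromosome 7, 122159437 to 122169875, 10 exons) encodes Polo-like kinase 1, which acts on centrosomes, kinetochores and the activators of Cdk1. Its values were 48.0, 49.9 and 46.5 CPM in fresh and 46.1, 45.2 and 41.8 CPM in vitrified–warmed libraries. All vitrified–warmed values lay below the fresh ones, but the gap was only that between 46.1 and 46.5 CPM. The log2 fold change of -0.12 (SE 0.07) did not pass the test (edgeR adjusted p = 0.136). It was -0.06 without the third vitrified–warmed library (adjusted p = 0.492) and -0.05 with a correction for exon length (adjusted p = 0.535). Plk1 shares 131 bases with Ern2 on the opposite strand, which had 9 fragments in all fresh and 0 in all vitrified–warmed libraries. By CPM, 6 of the 10 genes were lower without overlap and 1 higher, against 35.1% and 33.5% of all tested genes. Plk1 is the gene that was lower without overlap and not called.

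The 3 Aurora kinases differed widely in level. Aurka (Entrez 20878, chromosome 2, 172356190 to 172370706, 12 exons), the kinase of centrosomes and spindle poles, averaged 49.5 FPKM in fresh and 35.1 FPKM in vitrified–warmed libraries. Aurkb (Entrez 20877, chromosome 11, 69045625 to 69051664, 12 exons), the kinase of the chromosomal passenger complex, averaged 4.60 and 4.28 FPKM. Aurkc (Entrez 20871, chromosome 7, 6989892 to 7003364, 19 exons), a relative of Aurkb best known from germ cells and early embryos, averaged 0.558 and 0.177 FPKM. Aurka thus supplied 87.7% to 92.2% of Aurora FPKM in every library.

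Aurka CPM was 150, 173 and 162 in fresh and 130, 126 and 131 in vitrified–warmed libraries. The fresh libraries were the more spread (SD 11.3 against 2.89 CPM), and even the lowest of them exceeded every vitrified–warmed one. Aurka fell by 20.2%, a log2 fold change of -0.33 (SE 0.05, edgeR adjusted p = 4.94e-05). It shares 4 bases with Cstf1 on the opposite strand, which had a log2 fold change of -0.51 (SE 0.08, edgeR adjusted p = 3.18e-05). Aurkb had 16.8, 14.2 and 16.7 CPM in fresh and 17.6, 17.8 and 14.6 CPM in vitrified–warmed libraries, with 1 low library in each group and overlapping ranges. Its log2 fold change was 0.06 (SE 0.12, edgeR adjusted p = 0.648), and this SE was the largest of the 4 genes not called. The ratio of Aurka to Aurkb FPKM ran from 9.45 to 12.9 in fresh and from 7.47 to 9.54 in vitrified–warmed libraries, which overlapped.

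Aurkc rested on few fragments, namely 26, 17 and 31 in fresh and 9, 9 and 6 in vitrified–warmed libraries. These correspond to 2.39, 1.51 and 2.66 CPM against 0.840, 0.978 and 0.533 CPM, with no overlap. Aurkc fell by 1.48 on the log2 scale (SE 0.43, edgeR adjusted p = 0.00717), the largest change and the largest error of the 10. The filter on low counts lay at 0.906 CPM, which 3 fresh libraries and 1 vitrified–warmed library exceeded. The gene thus entered the test through the group where it was high, which favoured a difference. Its adjusted p is therefore no evidence of a difference. In addition, 43.3% of the 75-base stretches of its transcripts occur in transcripts of other genes, mainly Gm12463. Oocyte markers moved in both directions, with 3 higher and 3 lower of 8 tested among 12 listed, and summed to 7.08 to 8.26 FPKM in fresh and 6.86 to 9.73 FPKM in vitrified–warmed libraries. Over all tested genes, 31.6% were higher and 32.8% lower. Some of these markers may also have entered the test through the group where they were high. The part of oocyte markers in the Aurkc result was not tested.

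Bub1 and Cdc20 stand on opposite sides of the spindle checkpoint, Bub1 as a kinetochore kinase that recruits checkpoint proteins and Cdc20 as the APC/C activator that the checkpoint inhibits. Bub1 (Entrez 12235, chromosome 2, 127800200 to 127831876, 29 exons) had 94.0, 98.6 and 101 CPM in fresh and 101, 97.6 and 96.5 CPM in vitrified–warmed libraries. The groups were interleaved, and the log2 fold change was 0.01 (SE 0.05, edgeR adjusted p = 0.913). Cdc20 (Entrez 107995, chromosome 4, 118432901 to 118437343, 10 exons) had 124, 130 and 129 CPM in fresh and 100, 106 and 98.4 CPM in vitrified–warmed libraries. The groups were well apart, with the lowest fresh value far above the highest vitrified–warmed one. Cdc20 fell by 20.4%, a log2 fold change of -0.33 (SE 0.05, edgeR adjusted p = 2.22e-05), the lowest adjusted p of the 10. Bub1 over Cdc20 by FPKM was 0.312, 0.311 and 0.323 in fresh and 0.414, 0.377 and 0.402 in vitrified–warmed libraries, a ratio chosen after the values were seen. Cdc20 overlaps Elovl1, a fatty acid elongase gene on the opposite strand, by 53 bases, and Elovl1 had a log2 fold change of -0.74 (SE 0.12, edgeR adjusted p = 6.94e-05).

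**Figure D2:**
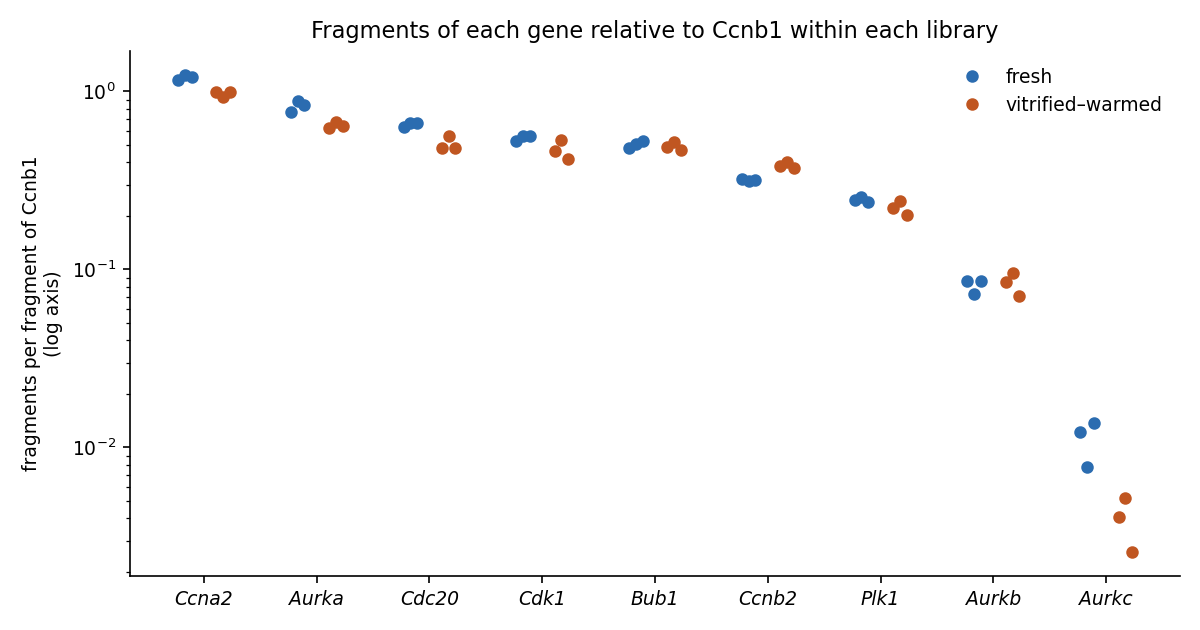
Fragments of each gene over fragments of Ccnb1 in the same library (vertical axis, log scale), with fresh and vitrified–warmed libraries as separate points. Ccnb2 sits higher in vitrified–warmed libraries (0.372 to 0.401 against 0.315 to 0.321), while Ccna2, Aurka, Aurkc and Cdc20 sit lower without overlap.

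Set against Ccnb1 within each library, where library scaling cancels, the groups of Ccnb2, Ccna2, Aurka, Aurkc and Cdc20 did not overlap. The share over all genes was not taken for this ratio. By CPM, 33.5% of all tested genes were higher and 35.1% lower without overlap, so separate groups are common here. Ccna2 went from 1.15 to 1.24 fragments per Ccnb1 fragment in fresh to 0.933 to 0.989 in vitrified–warmed libraries. Aurka went from 0.765 to 0.887 down to 0.626 to 0.671, and Cdc20 from 0.629 to 0.667 down to 0.479 to 0.565. Cdk1 at 0.524 to 0.560 and 0.419 to 0.530 overlapped on this measure, as did Plk1, Aurkb and Bub1. Ordered by FPKM, Ccna2, Ccnb1 and Aurka led in fresh blastocysts, each overlapping the next of the 3, followed by Cdc20, Ccnb2 and Cdk1, then Bub1 and Plk1, which also overlapped, then Aurkb and Aurkc. In vitrified–warmed blastocysts Ccnb1 came first, at 43.4 to 48.9 FPKM, above Ccna2 and Aurka, which overlapped each other, and the order from Cdc20 down was the same.

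The scale of the values moved the small differences. On log2(FPKM + 0.5) tested with limma, the median of all tested genes lay at -0.13, and 20.7% of genes were called higher and 43.4% lower. On that scale Ccnb2 kept its rise (0.14, adjusted p = 0.0225), Plk1 was called lower (-0.28, adjusted p = 0.00256), and Bub1 turned to -0.16 and was called lower (adjusted p = 0.0163), which is close to the median of all genes. Ccnb1 was at -0.13 there (adjusted p = 0.0631), the same as the median of all genes. Ccna2, Cdk1, Aurka and Cdc20 were lower under each of the 4 scalings tried besides TMM on counts. These were size factors of DESeq2, 12 housekeeping genes, library totals and FPKM. Aurkc was lower under each as well, within the limit set by the filter on low counts.

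**Figure D3:**
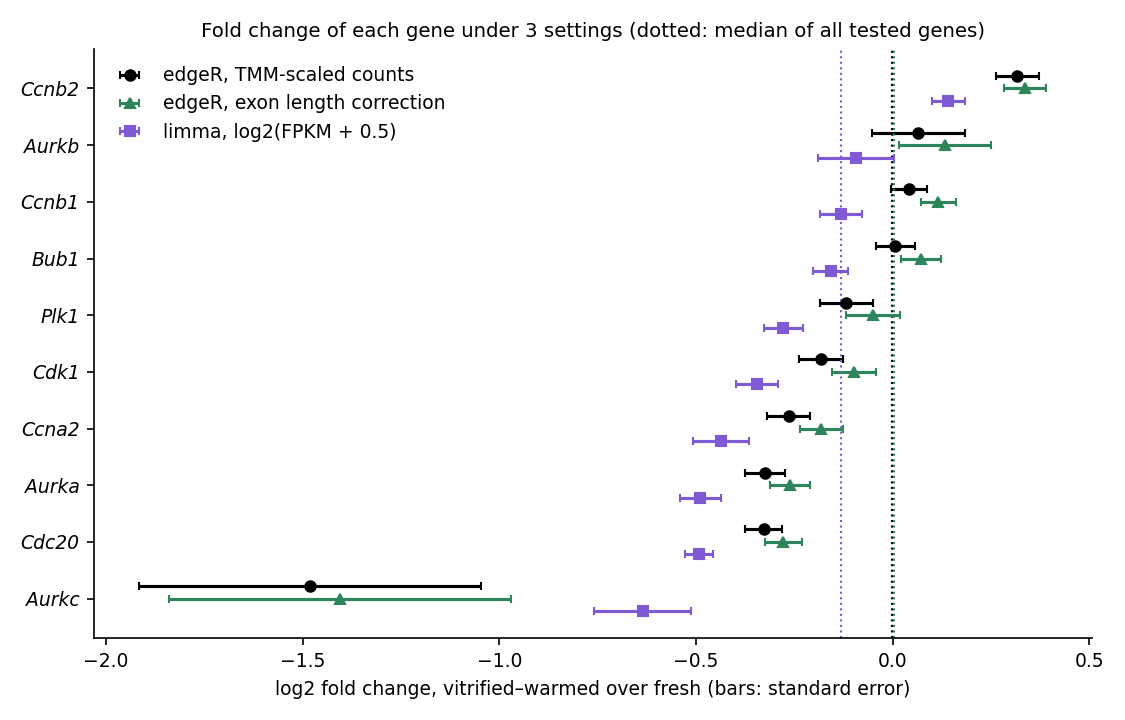
Log2 fold change of vitrified–warmed over fresh (horizontal axis) with its standard error for each gene under 3 settings, with the median of all tested genes as dotted lines. Ccnb2 lies right of 0 under each setting (0.32 with edgeR), Cdc20, Aurka and Ccna2 lie left of it, and Bub1 moves from 0.01 to -0.16 between edgeR counts and limma on FPKM.

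The other genes of the mitotic programme were followed in 9 lists of 117 genes, 113 of them tested, of which 30 (26.5%) were higher and 47 (41.6%) lower, beside 31.6% and 32.8% of all tested genes. Their median log2 fold change was -0.08. Partners and regulators of Cdk1 had 6 higher and 2 lower of 13 tested. Their median of 0.10 turned to -0.07 on the FPKM scale, where the median of all genes was -0.13. Wee2 is counted among the 6 and the 30, but it entered the test through the group where it was high, so its call is no evidence. Cdc25c, a phosphatase that removes the inhibitory phosphates of Cdk1, had 11.3, 9.12 and 10.97 CPM in fresh and 20.5, 23.5 and 24.7 CPM in vitrified–warmed libraries. It rose by 1.13 on the log2 scale (SE 0.12, edgeR adjusted p = 9.47e-07). Its relative Cdc25b, which activates Cdk1 at the centrosome, fell by 0.69 (SE 0.15, edgeR adjusted p = 7.16e-04), and Ccnf, a cyclin that serves a ubiquitin ligase and not a kinase, fell by 0.63 (SE 0.08, edgeR adjusted p = 3.43e-06).

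The Greatwall pathway restrains the phosphatase PP2A while Cdk1 is active, and with the mitotic phosphatases it had 5 higher and 2 lower of 12 tested (median 0.09, and -0.08 on the FPKM scale). Mastl, the Greatwall kinase, rose by 0.42 on the log2 scale from a mean of 69.0 to 92.1 CPM (edgeR adjusted p = 1.21e-05). Its substrate Ensa rose by 0.33 (edgeR adjusted p = 0.00767), a call lost on the FPKM scale (adjusted p = 0.184). Ppp1ca, a catalytic subunit of protein phosphatase 1, fell by 0.29 (edgeR adjusted p = 8.50e-05).

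Cofactors of Aurora A and Plk1 had 1 higher and 6 lower of 12 tested, with a median of -0.17. Bora, which lets Aurora A activate Plk1, had 28.7, 32.4 and 30.8 CPM in fresh and 20.5, 16.4 and 20.4 CPM in vitrified–warmed libraries, and fell by 0.67 (SE 0.10, edgeR adjusted p = 2.66e-05). Plk4, the kinase of centriole duplication, fell by 0.50 (edgeR adjusted p = 3.44e-05). Plk2, a Polo-like kinase known from stress responses and centrioles, went the other way and rose by 1.06 from a mean of 7.00 to 14.6 CPM (edgeR adjusted p = 4.15e-06).

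The chromosomal passenger complex and its regulators, through which Aurkb acts, were divided, with 3 higher and 3 lower of 7. Haspin, listed as Gsg2, the kinase whose histone mark brings the complex to centromeres, rose by 0.39 (edgeR adjusted p = 0.0129), and the scaffold Incenp rose by 0.17 (edgeR adjusted p = 0.00508). Both calls were lost on the FPKM scale (adjusted p = 0.120 and 0.960). Birc5, survivin, fell by 0.21 from a mean of 186 to 160 CPM (edgeR adjusted p = 0.00216). The spindle checkpoint had 2 higher and 4 lower of 12, with a median of -0.04 that stood at 0.03 after the exon length correction. Bub1b, which encodes BubR1, the partner of Bub1 and an inhibitor of Cdc20, fell by 0.41 (edgeR adjusted p = 1.29e-05), Spdl1, a dynein adaptor at kinetochores, by 0.51 (edgeR adjusted p = 1.21e-05), and Mad1l1, the kinetochore platform for Mad2, by 0.39 (edgeR adjusted p = 0.00119).

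Subunits, coactivators and inhibitors of the APC/C had 5 higher and 7 lower of 18 tested. Fzr1, or Cdh1, the coactivator that takes over from Cdc20 at mitotic exit, had 15.2, 16.8 and 15.6 CPM in fresh and 24.9, 24.3 and 24.3 CPM in vitrified–warmed libraries. It rose by 0.63 (SE 0.09, edgeR adjusted p = 2.87e-05), whereas Cdc20 fell. Ube2c, the ubiquitin-conjugating enzyme that works with the APC/C, rose by 0.51 (edgeR adjusted p = 4.25e-07), and the subunit Anapc16 fell by 0.69 (edgeR adjusted p = 5.38e-05).

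Other APC/C substrates had 2 higher and 8 lower of 12 (median -0.23), and mitotic kinesins 1 higher and 9 lower of 12 (median -0.31), the lowest median of the 9 lists. Kif22, a chromosome-arm kinesin, had 83.3, 96.1 and 93.0 CPM in fresh and 47.3, 51.9 and 51.4 CPM in vitrified–warmed libraries. It fell by 0.86 (SE 0.07, edgeR adjusted p = 4.24e-08), a larger change than that of any of the 10 cyclins and kinases except Aurkc. Cdca5, or sororin, which protects cohesion, fell by 0.70 (edgeR adjusted p = 2.39e-06), and Nusap1, a spindle microtubule protein, by 0.45 (edgeR adjusted p = 6.85e-05). Among the kinesins, Kif18a, which shortens kinetochore microtubules, fell by 0.76 (edgeR adjusted p = 7.76e-04), Kifc1, a minus-end motor, by 0.63 (edgeR adjusted p = 1.13e-05), and Kif20a, a motor of the central spindle, by 0.52 (edgeR adjusted p = 2.62e-07).

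**Figure D4:**
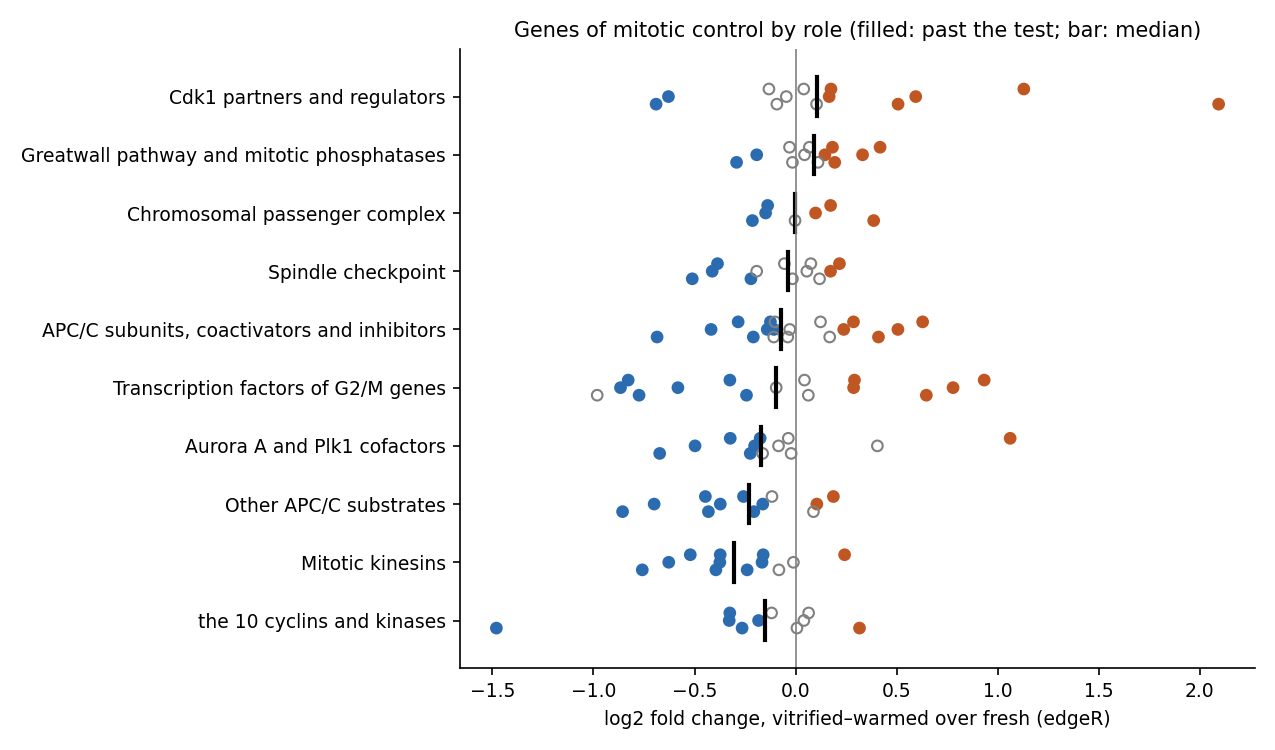
Log2 fold change of vitrified–warmed over fresh (horizontal axis) for each tested gene of the 9 lists and of the 10 cyclins and kinases, shown as points, with the median of each list as a line. The medians run from -0.31 for mitotic kinesins to 0.10 for partners and regulators of Cdk1, and that of the 10 genes is -0.15.

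Transcription factors of G2/M genes, NF-Y and MuvB subunits included, were divided, with 5 higher and 6 lower of 15 (median -0.10). Foxm1, which works with MuvB on G2/M genes, had 16.5, 15.6 and 17.9 CPM in fresh and 32.8, 33.4 and 29.4 CPM in vitrified–warmed libraries. It rose by 0.93 (SE 0.09, edgeR adjusted p = 6.30e-07). Nfyb, a subunit of the CCAAT-binding factor NF-Y, had 65.2, 68.2 and 69.5 CPM in fresh and 37.2, 38.8 and 38.3 CPM in vitrified–warmed libraries, and fell by 0.83 (SE 0.06, edgeR adjusted p = 3.55e-08). The other NF-Y subunits, named after their values were seen, did otherwise. Nfya rose by 0.78 (edgeR adjusted p = 4.78e-06), and Nfyc was not called, at 0.06 (edgeR adjusted p = 0.270). Of the MuvB subunits, Lin52 fell by 0.87 from a mean of 8.34 to 4.53 CPM (edgeR adjusted p = 4.63e-04). Lin37, Lin54 and Lin9, also named after their values were seen, rose by 0.65, 0.29 and 0.29 (edgeR adjusted p = 1.78e-05, 4.64e-04 and 0.00213), and the calls of Lin54 and Lin9 were lost on the FPKM scale (adjusted p = 0.0905 and 0.132). Among the 5 members whose windows held both motifs, Ccnb2 was higher, Cdk1, Aurka and Cdc20 were lower and Plk1 was not called.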

How the data were processed

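RNA-Seq of 3 fresh and 3 vitrified–warmed libraries was analysed. Per the labels and methods, the authors trimmed reads, aligned them to GRCm38 and counted fragments in CLC Genomics Workbench, and they deposited whole-number exon fragment counts without normalization. The FPKM values that the authors deposited divide these counts by exon length and a library total. The authors' columns of group means, fold changes and p-values were not used. Counts of 28879 named genes (8 unnamed entries were left out) were filtered with filterByExpr (minimum count 10), which kept 12774, scaled with TMM and tested with the robust quasi-likelihood test of edgeR 4.0.16 in R 4.3.3, with Benjamini–Hochberg adjustment over all of them. The script was tested on simulated data, where it called 34% of genes changed 1.2-fold and 92% of those changed 1.5-fold, with 16 false calls among 12219 genes. The 16 false calls weigh more against the genes called than against all genes. Changes as small as 1.2-fold can thus go uncalled, and some calls can be false.

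Alternatives were DESeq2 1.42.0, no filter, only genes above 1 FPKM, limma 3.58.1 on log2(FPKM + 0.5), 12 housekeeping genes, library totals, a replicate block, an exon length correction, each library left out and a 1.5-fold threshold. No 2 libraries of a group agreed within counting noise. The members and lists were chosen with earlier results of these data known. From each list, up to 3 called genes are named, taken by largest absolute change among those averaging over 1 FPKM whose groups were separate, and other genes are named where they overlap a member or were chosen after their values were seen. Among list genes, 4 were found under an older symbol. Promoter motifs were searched on both strands in Python 3.11.15.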

Additional observations from a re-analysis of the deposited data

How the results depend on the processing

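Of 139 values of the 10 genes under the alternatives, 128 kept their direction and their side of the threshold. The sign turned in 6, all of genes not called with edgeR. With limma on log2 FPKM, Ccnb1 was at -0.13, Aurkb at -0.094 and Bub1 at -0.16, the last of these called. With 1 library left out, Aurkb ran from -0.011 to 0.17 and Bub1 from -0.024 to 0.039. Members called higher were 2, not 1, after the exon length correction and without vitrified–warmed replicate 2, where Ccnb1 was added. With a 1.5-fold threshold, 0 members were higher and 1 lower, 8 list genes were higher and 11 lower, and 2364 of all genes were higher and 2262 lower. With limma on FPKM, 12 list genes and 2647 of all genes were higher, against 30 and 4034 with edgeR, and 7 members, 64 list genes and 5542 of all genes were lower, against 5, 47 and 4188. Among genes above 1 FPKM alone, 2789 were lower, against 4188, since fewer genes were tested. Leaving out 1 library at a time gave 1 to 2 members higher and 4 to 5 lower, 25 to 33 list genes higher and 41 to 46 lower, and 3741 to 4403 of all genes higher and 3845 to 4343 lower. The replicate block gave 1 member higher and 5 lower and 3890 and 4073 of all genes. Libraries with the same number did not deviate together (correlations -0.01, -0.03 and 0.03), so the numbers do not pair them. The cause of these shifts was not tested, apart from the smaller number of genes. Aurkc and Aurkb, with the fewest fragments of the 10, had the largest standard errors.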

Other observations

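Wee2, the germ-cell relative of the kinase Wee1 that holds Cdk1 inactive in oocytes, was named after its values were seen. It had 14, 0 and 6 fragments in the fresh and 25, 26 and 29 in the vitrified–warmed libraries, or 1.29, 0 and 0.514 CPM against 2.33, 2.83 and 2.58 CPM. The groups did not overlap, at a mean of 0.0763 FPKM over all libraries. Only 1 fresh library exceeded the filter of 0.906 CPM, against 3 vitrified–warmed ones, so Wee2 entered the test through the group where it was high. No test is given here for that reason, although its call is counted in the list of Cdk1 partners and regulators.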
